A study of Mus musculus with 8 samples.

Results

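The thick ascending limb (TAL) is the nephron segment just before the distal convoluted tubule (DCT), and 10 genes known for it were followed here in sorted mouse DCT: Slc12a1, Kcnj1, Cldn10, Cldn16, Cldn19, Tmem207, Umod, Wfdc15b, Ptger3 and Ppp1r1b. The genes were chosen by name. Each was read by the probe set with the highest mean among those that the platform annotation pairs with exactly 1 gene symbol, and all 10 were found among 18782 genes measured in that way. Tubules were isolated from male C57/Bl6 mice, 8 weeks old, that were either TBC1D4-deficient (4 arrays) or TBC1D4 wild-type (4 arrays). Mice of both genotypes carried 1 copy of the PV-EGFP transgene (PV-EGFPwt/tg), in which the parvalbumin promoter drives EGFP, and fluorescent tubules were collected by COPAS, a sorter for large particles. TBC1D4 switches off Rab GTPases and so holds vesicles with glucose transporters inside the cell. No label says how the TBC1D4 allele was made. A sort on parvalbumin-driven EGFP selects the early DCT, so the TAL was not the segment sought. The study looked for compensation in the DCT when TBC1D4 is missing.

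The TAL takes up sodium chloride from the urine without water. NKCC2 (Slc12a1) carries sodium, potassium and chloride into the cell, ROMK (Kcnj1) returns the potassium to the lumen, and the lumen-positive voltage that results drives sodium, calcium and magnesium between the cells through pores made of claudins. The segment also secretes uromodulin (Umod), the main protein of normal urine. Of these genes, Kcnj1 is known in later distal segments too, Umod also in the early DCT, and Cldn10 also in the proximal tubule, where it is made as another isoform.

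Values are probe set intensities on a linear scale, and differences are TBC1D4-deficient minus wild-type on the log2 scale. The 8 arrays were alike in scale, with medians of 8.41 to 9.03 and highest values of 3915 to 4138, and without a detection call a dim value cannot be told from background. For arrays, the number per group limits the precision. Tbc1d4 read 5.59, 6.59, 5.65 and 4.64 in TBC1D4-deficient replicates 1 to 4, against 103.2, 111.0, 95.6 and 122.8 in wild-type replicates 1 to 4, so the arrays matched their labels (log2 difference -4.27, limma adjusted p = 6.35e-08). DCT markers were bright, though their brightness alone does not show how pure the sort was. Slc12a3, the sodium chloride cotransporter of the DCT, read 2832 to 2925 in TBC1D4-deficient and 2797 to 3021 in wild-type arrays, and Pvalb (parvalbumin) read 808 to 923 in TBC1D4-deficient and 762 to 855 in wild-type arrays. Some genes on the marker lists of other segments were bright too, which alone does not show that those segments were carried along. Slc34a1, on the proximal tubule list, read 404 to 933 in TBC1D4-deficient and 552 to 1166 in wild-type arrays. Calb1, on the connecting tubule and principal cell list, read 2125 to 2160 in TBC1D4-deficient and 2140 to 2261 in wild-type arrays. Proximal tubule markers varied more between arrays than the other marker lists. The mean deviation of 17 measured markers (of 19 listed) from their own means over all arrays was -1.05, 0.23, 0.09 and 0.13 in TBC1D4-deficient replicates 1 to 4, against -0.57, -0.26, 0.69 and 0.74 in wild-type replicates 1 to 4. TBC1D4-deficient replicate 1 was thus the lowest array for that list, and wild-type replicates 3 and 4 were the highest.

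Promoter sequences are given for Slc12a1, Wfdc15b and Umod, whose levels ran together or against each other between arrays, and for Cldn10, the most variable of the 10 genes. Each runs 5′ to 3′ on the strand of its gene and ends at the base before the annotated start (RefSeq, GRCm38.p6), 250 bases in all. Capitals mark a match on either strand to TTAATNATT, letters from the middle of the binding sequence known for HNF1 factors; N is any base. The motif was picked after the sequences had been read. These are the stretches before Slc12a1 (chr2:125152350-125152599, plus strand), Wfdc15b (chr2:164221664-164221913, minus strand), Umod (chr7:119479263-119479512, minus strand) and the start sites of Cldn10 (chr14:118787621-118787870 and chr14:118854700-118854949, plus strand).
Slc12a1: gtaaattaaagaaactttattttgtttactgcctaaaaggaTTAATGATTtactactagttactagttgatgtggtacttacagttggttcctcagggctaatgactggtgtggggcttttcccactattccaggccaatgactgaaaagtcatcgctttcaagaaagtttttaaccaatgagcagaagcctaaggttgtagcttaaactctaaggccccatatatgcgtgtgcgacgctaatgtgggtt
Wfdc15b: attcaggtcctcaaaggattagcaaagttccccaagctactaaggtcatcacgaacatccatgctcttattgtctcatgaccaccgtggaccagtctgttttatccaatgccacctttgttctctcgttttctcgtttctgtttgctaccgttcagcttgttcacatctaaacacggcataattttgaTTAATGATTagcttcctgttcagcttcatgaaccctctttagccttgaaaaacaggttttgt
Umod: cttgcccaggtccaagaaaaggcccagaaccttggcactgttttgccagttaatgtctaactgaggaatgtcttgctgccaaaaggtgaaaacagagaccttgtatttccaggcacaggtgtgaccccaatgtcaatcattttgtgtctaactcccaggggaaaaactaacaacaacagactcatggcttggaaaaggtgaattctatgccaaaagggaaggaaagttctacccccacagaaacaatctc
Cldn10, upstream start: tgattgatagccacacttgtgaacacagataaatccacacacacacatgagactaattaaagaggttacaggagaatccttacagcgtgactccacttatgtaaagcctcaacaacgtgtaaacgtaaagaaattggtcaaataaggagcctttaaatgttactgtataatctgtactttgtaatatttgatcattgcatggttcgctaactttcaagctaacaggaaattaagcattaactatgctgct
Cldn10, downstream start: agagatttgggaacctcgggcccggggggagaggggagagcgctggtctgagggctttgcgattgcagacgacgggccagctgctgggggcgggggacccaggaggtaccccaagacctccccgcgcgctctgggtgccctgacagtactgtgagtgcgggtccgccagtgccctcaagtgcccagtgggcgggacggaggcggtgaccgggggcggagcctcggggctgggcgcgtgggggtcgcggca
The motif was found in 459 of 32851 RefSeq promoter stretches of this length (1.40%). Of 11 stretches of 9 of the 10 genes, 2 held it, those of Slc12a1 and Wfdc15b. The match opens 209 and 62 bases before the start, with the same 9 letters, TTAATGATT, in both. As the motif was picked after these sequences had been read, the 1.40% is no test of the 2 matches. A match is a run of letters and was not tested as a binding site, and the other stretches lack these letters only within the window searched. Only this motif was searched, so a looser form of the binding sequence would not be marked, in the Umod stretch as in the others.

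None of the 10 genes differed between genotypes beyond the spread of the replicates. In limma, with Benjamini-Hochberg adjustment over 23039 probe sets, 0 of 10 passed an adjusted p of 0.05 in either direction, against 0.00434% of all probe sets, which is Tbc1d4 alone. The adjusted p was 0.9999 for each of the 10. An unadjusted p below 0.05 was found for 0 of 10, against 2.9% of all probe sets, and the groups did not overlap in 0 of 10, against 1.85%. The median log2 difference was -0.06 over the 10 genes and -0.0017 over all probe sets tested, with 7 genes below 0 (50.9% of all probe sets lay below 0) and 3 above. The 95% interval lay inside 1.5-fold for 8 of the 10 genes, against 97.4% of all probe sets; the exceptions were Cldn10 and Tmem207. Among marker lists of other cell types, all 17 proximal tubule, all 10 endothelial and all 10 connecting tubule and principal cell markers lay below 0, as did 5 of 7 intercalated cell markers, while 3 of 4 DCT and 4 of 6 leukocyte markers lay above 0. None of these passed after adjustment, and 7 endothelial and 2 intercalated cell markers had an unadjusted p below 0.05. The 2 intercalated cell markers lay on opposite sides of 0, Atp6v0d2 at -0.33 and Atp6v1b1 at 0.13. The summed endothelial intensity was 120 to 154 in TBC1D4-deficient and 165 to 181 in wild-type arrays, no marker was at 0, and the part of endothelial cells in the differences of the 10 genes was not tested. The labels name separate samples but no animals, so the p-values rest on spread between samples that may be technical.

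**Figure D1:**
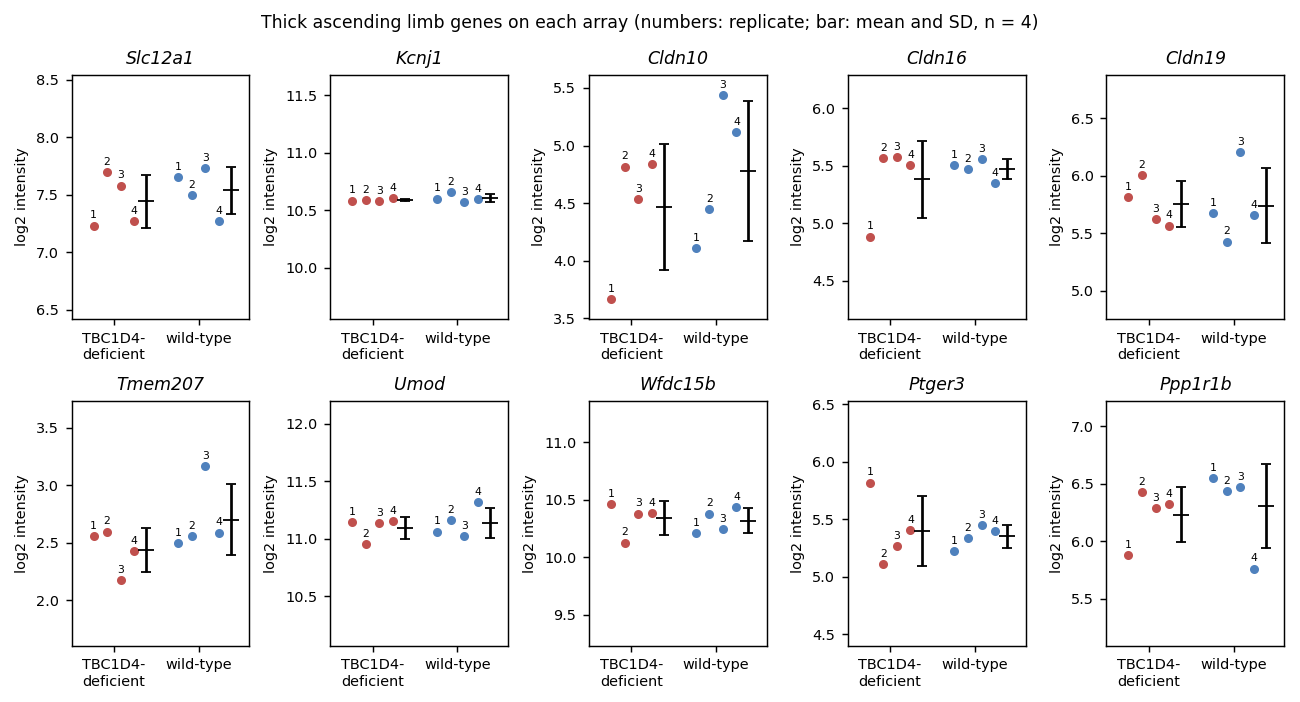
Log2 intensity of the 10 genes (vertical axis, every panel spanning the same range) on each array, with TBC1D4-deficient replicates at the left of each panel and wild-type at the right; black bars are the mean and SD (n = 4 each). The groups overlap in every panel, Cldn10 is the most widely spread (12.7 to 43.4 in intensity) and Kcnj1 the least (1522 to 1617).

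**Figure D2:**
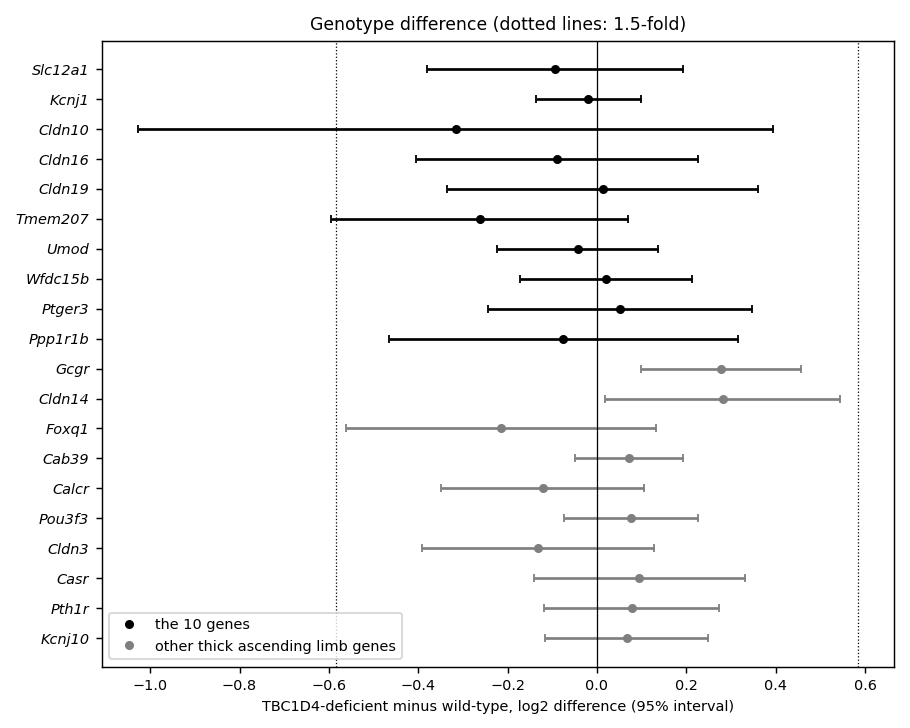
Log2 difference, TBC1D4-deficient minus wild-type (horizontal axis), with its 95% interval from limma for the 10 genes (black) and for the 10 other TAL genes with the smallest unadjusted p (grey); dotted lines mark 1.5-fold. The intervals of all 10 black genes include 0, and only those of Cldn10 and Tmem207 reach past 1.5-fold.

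Neither of the apical transport genes passed the test. Slc12a1 had intensities of 150.2, 207.8, 191.0 and 154.0 in TBC1D4-deficient replicates 1 to 4, against 201.5, 180.5, 212.1 and 154.3 in wild-type replicates 1 to 4. Low values were seen in TBC1D4-deficient replicates 1 and 4 as well as in wild-type replicate 4, and the groups overlapped. The log2 difference was -0.09 (95% interval -0.38 to 0.19; limma adjusted p = 0.9999), and an exact permutation test over the 70 assignments of arrays, 2-sided, gave p = 0.6. Its value was -0.19 within the arrays numbered 5 to 8 in the sample descriptions and 0.0028 within those numbered 9 to 12. The meaning of those numbers is not stated, and each set holds 2 arrays of each genotype. Kcnj1 had intensities of 1534, 1540, 1531 and 1556 in TBC1D4-deficient replicates, against 1554, 1617, 1522 and 1552 in wild-type replicates. Only wild-type replicate 2 stood slightly above the others, and the groups overlapped. Kcnj1 differed by -0.02 (-0.14 to 0.10). The SD over all 8 arrays was 0.03 on the log2 scale, a value smaller than that of nearly all genes: 0.106% of 18782 genes had a smaller SD. Kcnj1 lay near the top of the intensity scale, where differences can be compressed, and the part of this in its small SD was not tested.

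Among the tight junction genes, Cldn10 varied most. It read 12.7, 28.2, 23.1 and 28.6 in TBC1D4-deficient replicates 1 to 4, against 17.2, 21.9, 43.4 and 34.8 in wild-type replicates 1 to 4. The lowest array was TBC1D4-deficient replicate 1, the highest was wild-type replicate 3, a 3.42-fold span, and the groups overlapped. The mean log2 value was 4.46 ± 0.55 in TBC1D4-deficient and 4.78 ± 0.61 in wild-type arrays (SD, n = 4 each). The log2 difference of -0.32 had an interval of -1.03 to 0.39 and a limma adjusted p of 0.9999 (exact permutation p = 0.486). Leaving out TBC1D4-deficient replicate 1 brought it to -0.05, leaving out wild-type replicate 3 to -0.10, and leaving out wild-type replicate 1 to -0.54. A second Cldn10 probe set gave nearly the same values (log2 difference -0.30). The annotation lists the same transcripts for both probe sets, so which isoform they read was not resolved.

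Cldn10 followed the proximal tubule markers from array to array. Its log2 value and the marker mean had Pearson r = 0.974 (exact permutation p = 0.000149) and Spearman rho = 0.952 (exact permutation p = 0.00114) over 8 arrays. Adjusted over the 50 relations between the 10 genes and 5 marker lists, the values were p = 0.00744 for r and p = 0.057 for rho, by exact permutation, so the rank relation missed the threshold. Without TBC1D4-deficient replicate 1 and wild-type replicate 1, the arrays farthest from the median of the marker mean, r was 0.914, and with each genotype centred on its own mean it was 0.973. The sets of arrays numbered 5 to 8 and 9 to 12 hold 4 arrays each, too few for a relation within a set. With the marker mean as a covariate, the genotype difference of Cldn10 was -0.05, against -0.32 without it, a difference that did not pass the threshold. The shift was not particular to this list. With the DCT marker mean as a covariate the difference was 0.02, and leaving out TBC1D4-deficient replicate 1 alone gave -0.05. The part of proximal tubule cells in the Cldn10 difference was not tested. All 17 proximal tubule markers gave a signal above 0. Their summed intensity ran from 1823 to 4488 in TBC1D4-deficient and from 2568 to 5882 in wild-type arrays. In bulk tubules, fewer cells of a type and less RNA per cell cannot be told apart. None of the other 49 relations passed after adjustment, and for the remaining 9 genes r with the proximal tubule markers ran from -0.41 (Ptger3) to 0.61 (Cldn16).

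Cldn16 and Cldn19, partners in the calcium and magnesium pore of the TAL, were each within their replicate spread. Cldn16 read 29.6, 47.4, 47.6 and 45.5 in TBC1D4-deficient replicates 1 to 4, against 45.5, 44.4, 47.1 and 40.8 in wild-type replicates 1 to 4. TBC1D4-deficient replicate 1 stood apart below the other 7 arrays, which lay close together. Cldn16 differed by -0.09 (-0.40 to 0.23) with all arrays and 0.08 without that replicate. Cldn19 read 56.4, 64.2, 49.3 and 47.4 in TBC1D4-deficient replicates, against 51.0, 43.0, 73.7 and 50.5 in wild-type replicates. Wild-type replicates 3 and 2 held both ends of its range, so the TBC1D4-deficient arrays lay between them. For Cldn19 the log2 difference was 0.01 (-0.34 to 0.36), with -0.22 and 0.25 within the arrays numbered 5 to 8 and 9 to 12. Tmem207, which codes for a transmembrane protein and is the gene next to Cldn16 on chromosome 16, read 5.90, 6.06, 4.52 and 5.38 in TBC1D4-deficient replicates, against 5.64, 5.90, 8.97 and 6.02 in wild-type replicates. Wild-type replicate 3 was alone at the top, and these intensities lie below or near the median of each array, where signal cannot be told from background. For Tmem207 the log2 difference was -0.26 (-0.59 to 0.07) and -0.11 without wild-type replicate 3, which was also the highest array for Slc12a1, Cldn10 and Cldn19.

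The secreted products lay near the top of the intensity scale, like Kcnj1. Umod read 2263, 1982, 2247 and 2280 in TBC1D4-deficient replicates 1 to 4, against 2138, 2288, 2077 and 2550 in wild-type replicates 1 to 4. TBC1D4-deficient replicate 2 was the lowest array and wild-type replicate 4 the highest. Umod differed by -0.04 on the log2 scale (-0.22 to 0.14), a ratio of TBC1D4-deficient over wild-type of 0.970. Wfdc15b, of the WFDC family of small secreted proteins, read 1414, 1119, 1333 and 1337 in TBC1D4-deficient replicates, against 1186, 1333, 1215 and 1386 in wild-type replicates. The same 3 arrays were lowest for both genes: TBC1D4-deficient replicate 2 and wild-type replicates 1 and 3. The log2 difference of Wfdc15b was 0.02 (-0.17 to 0.21), a ratio of 1.01.

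The signalling members were Ptger3, the EP3 receptor for prostaglandin E2, which lowers cAMP, and Ppp1r1b, a phosphatase inhibitor switched on by cAMP-dependent kinase. Ptger3 read 56.5, 34.6, 38.5 and 42.5 in TBC1D4-deficient replicates 1 to 4, against 37.3, 40.5, 43.6 and 42.1 in wild-type replicates 1 to 4. TBC1D4-deficient replicates 1 and 2 held both ends of the range, with the wild-type arrays between them. For Ptger3 the log2 difference was 0.05 (-0.24 to 0.35) with -0.09 without TBC1D4-deficient replicate 1 and 0.15 without TBC1D4-deficient replicate 2. Ppp1r1b read 59.0, 86.2, 78.1 and 80.2 in TBC1D4-deficient replicates, against 93.9, 86.8, 88.6 and 54.3 in wild-type replicates. TBC1D4-deficient replicate 1 and wild-type replicate 4 were low, and the other 6 arrays lay within 78.1 to 93.9. The log2 difference was -0.08 (-0.47 to 0.32), 0.04 without TBC1D4-deficient replicate 1, and -0.26 when wild-type replicate 4 was left out.

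Most of the 10 genes varied more between arrays than a typical gene. The SD over the 8 arrays exceeded the 90th percentile of all genes (0.21 on the log2 scale) for 7 of the 10: Slc12a1, Cldn10, Cldn16, Cldn19, Ptger3, Ppp1r1b and Tmem207. Their SDs ran from 0.21 for Slc12a1 to 0.56 for Cldn10, and the median over the 10 genes was 0.22, against 0.12 over 18782 genes. Umod and Wfdc15b, at 0.11 and 0.12, were close to that median. Whether the larger SDs go with lower intensity was not tested.

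**Figure D3:**
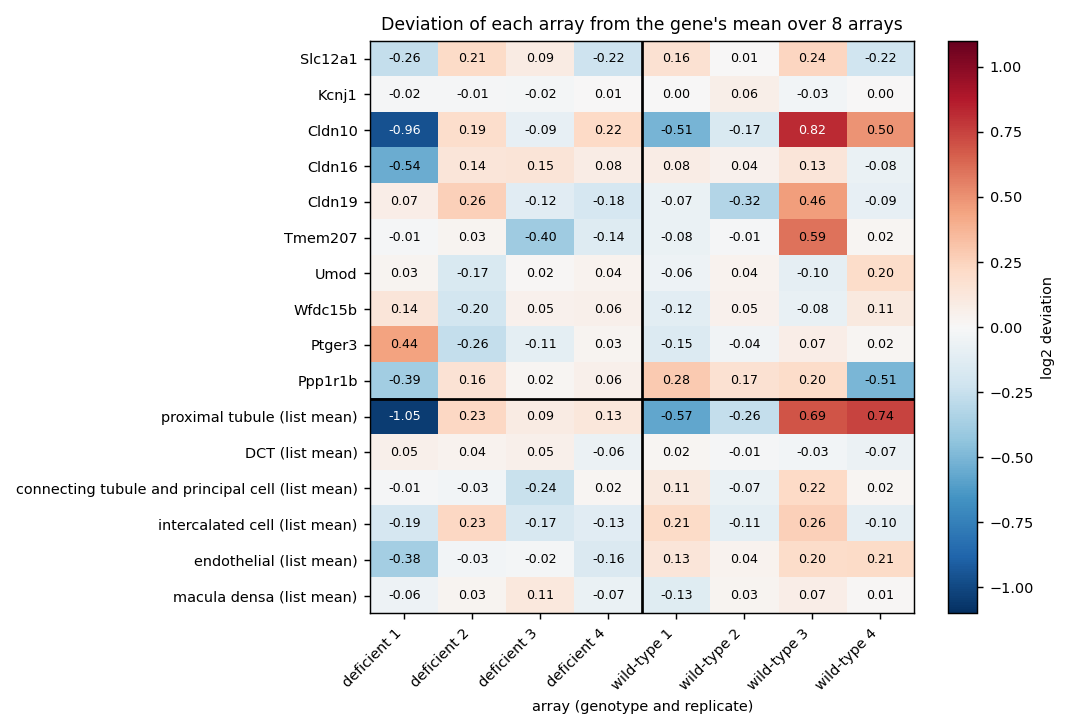
Deviation of each array (columns, 4 TBC1D4-deficient then 4 wild-type) from the mean over 8 arrays on the log2 scale, for the 10 genes and, below the line, for the means of 6 marker lists. TBC1D4-deficient replicate 1 is low for Cldn10 (-0.96), Cldn16 (-0.54) and the proximal tubule list (-1.05) but high for Ptger3 (0.44).

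The 10 genes did not move as 1 block. Of their 45 pairs, 24 had a positive and 21 a negative Pearson r over the 8 arrays, with a median of 0.03. By exact permutation 12 pairs had an unadjusted p below 0.05 for r, and 7 for rho. After adjustment over the 45 pairs 0 passed (smallest adjusted p = 0.133 for r and 0.223 for rho). The share among pairs of all genes was not computed, so these counts show nothing particular to the 10 genes. Pairs are named here as descriptions, chosen after their values were seen. Umod, Wfdc15b and Slc12a1 shared a split of the arrays. In TBC1D4-deficient replicate 2 and wild-type replicates 1 and 3, Wfdc15b read 1119 to 1215 and Umod 1982 to 2138, the lowest values of each gene. Slc12a1 read 201.5 to 212.1 in the same 3 arrays, its highest values. As Wfdc15b leaves a gap between these arrays and the other 5, no pooled correlation is given for the pairs among these 3 genes. The sample descriptions also hold a second number of unstated meaning, which falls into a low and a high range. The 3 arrays of the split were all in the high range, with wild-type replicate 4 as its only other array. That array lay on the other side of the split, with 2550 for Umod, 1386 for Wfdc15b and 154.3 for Slc12a1. The high range thus held more wild-type than TBC1D4-deficient arrays. The part of this number in the split was not tested. The promoter stretches of Slc12a1 and Wfdc15b, shown above, both hold TTAATGATT. That motif was picked after the sequences had been read, and a link between it and the split was not tested. Slc12a1 ran with Cldn16, at r = 0.674 (exact permutation p = 0.00625, adjusted p = 0.133) and rho = 0.667 (exact permutation p = 0.0831, adjusted p = 0.346), with r = 0.910 without TBC1D4-deficient replicates 1 and 4. It also ran with Ppp1r1b, at r = 0.787 (exact permutation p = 0.0148, adjusted p = 0.133) and rho = 0.690 (exact permutation p = 0.0694, adjusted p = 0.346), with r = 0.881 without the same arrays. The arrays left out were those farthest from the median of Slc12a1. Wild-type replicate 4 stayed in, with low values for Slc12a1 (154.3), Cldn16 (40.8) and Ppp1r1b (54.3). These r values therefore do not show that either relation holds without that array. Cldn16 and Ptger3 had the r farthest from 0, at -0.873 (exact permutation p = 0.0238, adjusted p = 0.179), with rho = -0.500 (exact permutation p = 0.216, adjusted p = 0.572). That relation rested on TBC1D4-deficient replicate 1 and wild-type replicate 4, without which r was -0.276.

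**Figure D4:**
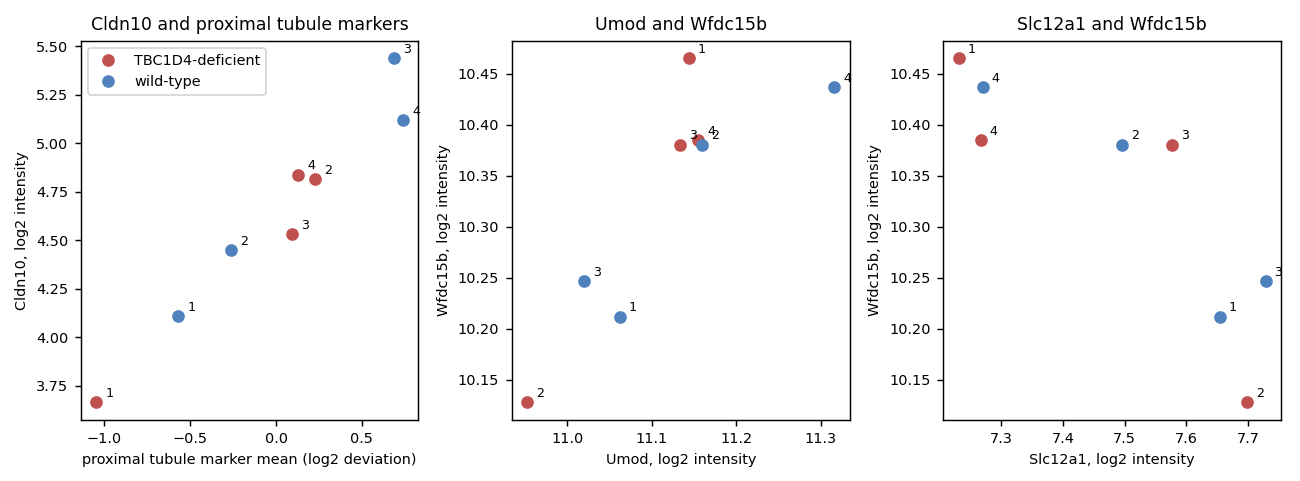
Log2 intensity of Cldn10 against the mean deviation of 17 proximal tubule markers, of Wfdc15b against Umod and of Wfdc15b against Slc12a1, with 1 point per array (red TBC1D4-deficient, blue wild-type, numbers give the replicate). Cldn10 rises along the marker mean with arrays of both genotypes interleaved (r = 0.974), and Wfdc15b is lowest in TBC1D4-deficient replicate 2 and wild-type replicates 1 and 3.

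Intercalated cell markers moved beside this pattern. Their mean deviation over 7 markers was -0.19, 0.23, -0.17 and -0.13 in TBC1D4-deficient replicates 1 to 4, against 0.21, -0.11, 0.26 and -0.10 in wild-type replicates 1 to 4. The 3 high arrays were the 3 in which Umod and Wfdc15b were lowest. The arrays fall into clusters of 3 and 5, so no pooled correlation is given. No marker was at 0, the summed intensity ran from 878 to 983 in TBC1D4-deficient and from 861 to 1003 in wild-type arrays, and the part of intercalated cells in the pattern was not tested. Markers of the macula densa, a patch of cells at the end of the TAL, were mixed in brightness. Nos1 and Ptgs2 were dim: Nos1 read 6.05 to 6.66 in TBC1D4-deficient and 5.98 to 7.77 in wild-type arrays, and Ptgs2 read 4.83 to 5.49 in TBC1D4-deficient and 4.73 to 5.77 in wild-type arrays. Ptges, the third on the list, read 49.6 to 69.1 in TBC1D4-deficient and 50.2 to 60.3 in wild-type arrays, well above the array medians, and the groups overlapped.

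Other genes of TAL transport and its control also showed no difference past the threshold. They were read in sorted DCT, so their values cannot be assigned to TAL cells. Of 38 listed, 33 were measured by a probe set with 1 symbol, 0 passed in limma in either direction, and 2 had an unadjusted p below 0.05, Gcgr and Cldn14, against 2.9% of all probe sets. The groups did not overlap for 2 of 33, Gcgr and Cab39, against 1.85%. The median log2 difference was 0.02, with 19 above and 14 below 0 (50.9% of all probe sets lay below), and the 95% interval lay inside 1.5-fold for all 33, against 97.4%. Gcgr, the glucagon receptor, which raises cAMP in the TAL and DCT, read 188.5, 184.4, 230.5 and 193.0 in TBC1D4-deficient replicates 1 to 4, against 159.8, 172.4, 155.9 and 166.8 in wild-type replicates 1 to 4. Each TBC1D4-deficient array lay above each wild-type array, but after adjustment the difference did not pass. The log2 difference was 0.28 (95% interval 0.10 to 0.46; unadjusted p = 0.00594, limma adjusted p = 0.9999), with 0.36 and 0.19 within the arrays numbered 5 to 8 and 9 to 12.

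By role, the kinases and sorting factors that act on NKCC2 and ROMK had 5 of 7 genes above 0, with differences of -0.03 to 0.07. Cab39, an adaptor that activates the kinases SPAK and OSR1, was at 0.07 (-0.05 to 0.19). Basolateral exit genes lay between -0.0024 and 0.07 for 5 measured of 8 listed, and the potassium channel subunit Kcnj10 was at 0.07 (-0.12 to 0.25). Among receptors and cAMP genes, Casr, the calcium-sensing receptor, was at 0.10 (-0.14 to 0.33), Pth1r, the parathyroid hormone receptor, at 0.08 (-0.12 to 0.27) and Calcr, the calcitonin receptor, at -0.12 (-0.35 to 0.10). Calcr was dim, at 5.38 to 7.80 over the 8 arrays. Cldn14, the claudin that blocks the pore of Cldn16 and Cldn19, was also dim, with 6.55, 8.22, 9.05 and 10.1 in TBC1D4-deficient replicates and 7.26, 6.93, 7.03 and 6.36 in wild-type replicates. TBC1D4-deficient replicate 1 lay among the wild-type arrays, and the log2 difference was 0.28 (0.02 to 0.54; limma adjusted p = 0.9999). Cldn3, a sealing claudin, was at -0.13 (-0.39 to 0.13). The transcription factors Pou3f3 and Foxq1 were at 0.08 (-0.07 to 0.23) and -0.21 (-0.56 to 0.13), the second with 11.7 in TBC1D4-deficient replicate 1 and 18.5 to 21.0 in the other 7 arrays. Without that replicate Foxq1 was at -0.03 and Cldn3 at -0.05, and without wild-type replicate 1 Cldn3 was at -0.22. All 6 genes in the group of uromodulin processing and TAL markers lay below 0, at -0.13 to -0.0060, with 0 past the threshold.

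The genes whose pattern over the 8 arrays was most like the mean deviation of the 10 genes were found among 6719 genes with a mean log2 value of at least 5 and outside the TAL lists. By Pearson r these were Prrc2a (0.960), Faap20 (0.939), Ldha (0.932), Abhd5 (0.926), Sfxn1 (0.918), Abhd16a (0.918), Kif3b (0.915) and Rnf208 (0.898). That mean is carried by TBC1D4-deficient replicate 1 (-0.15) at the low end and wild-type replicate 3 (0.23) at the high end. Without Cldn10 in the mean, r for the same 8 genes ran from 0.702 to 0.924. The highest r were picked from many genes, so they carry no p.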

How the data were processed

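The members and all gene lists were chosen with earlier results of these data known. The values the authors deposited are linear intensities of 28371 probe sets on 8 one-colour arrays with a biotin label, made from 100 ng of RNA each per the labels' protocols. Affymetrix Power Tools was used, per the submitters' processing notes; no source used here gives its version, the summarisation or the normalization. From these values log2 was taken with no pseudocount, filter or further normalization. Samples were grouped by their titles, and the fit (limma 3.58.1, R 4.3.3) had genotype as its only term, with eBayes moderation and 2-sided p, and covered 23039 probe sets with at least 1 symbol. Names come from the platform annotation: 21158 probe sets had 1 symbol, 1881 several and 5332 none. All 10 symbols matched the RefSeq gene table. The fit was tested on simulated data. Correlations used all orders of the 8 arrays. Named by rule were Tbc1d4, the 10 genes, the 10 other TAL genes with the smallest p, the 8 most alike genes and markers of other cell types. Alternatives were row sets, a pseudocount, normalizations, priors, weights, blocks, covariates, number sets and leaving out each array.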

Additional observations from a re-analysis of the deposited data

Results flagged for a closer look

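Within each genotype, an array was marked where its gap to the nearest of the other 3, as a share of the group's whole range, exceeded Dixon's 95% critical value; chance marks about 1 in 20 groups, and 5 of 40 groups were marked (4 of the 20 of the 10 genes). Umod was low in TBC1D4-deficient replicate 2, at 10.95 on the log2 scale against 11.13 in the nearest replicate. Cldn16 was low in TBC1D4-deficient replicate 1, at 4.89 against 5.51. Ppp1r1b was low in wild-type replicate 4, at 5.76 against 6.44. Tmem207 was high in wild-type replicate 3, at 3.17 against 2.59. Pou3f3 was high in TBC1D4-deficient replicate 3, at 7.07 against 6.97.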

How the results depend on the processing

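Over 23 alternative settings, 0 of the 10 genes and 0 of the 33 other TAL genes passed the threshold, 1 probe set (Tbc1d4) was lower and 0 were higher; the smallest adjusted p of the 10 genes was 0.997. With only probe sets above a mean intensity of 16, 9 of the 10 genes and 29 of the 33 were left, without Tmem207, Calcr and Cldn14 among the named. With unadjusted p, 1 of the 10 lay below 0.05 in 1 setting, within the arrays numbered 5 to 8 (Tmem207, -0.56). The median log2 difference of the 10 genes ran from -0.11 to -0.0083, and that of the other TAL genes from 0.0065 to 0.0369, the highest coming from centring each array on its median, which also put the median of all probe sets at 0.0188. Directions of differences that did not pass turned in some settings. With the arrays numbered 5 to 8 alone the values were 0.0542 for Umod, 0.0268 for Cldn16, -0.221 for Cldn19, -0.0562 for Ptger3 and 0.0338 for Foxq1. Within 9 to 12 they were 0.0028 for Slc12a1, 0.0357 for Tmem207, -0.0275 for Wfdc15b, -0.0093 for Casr and -0.0046 for Pth1r. The range of the second number in the descriptions was unbalanced between genotypes. With that range as a covariate the values were 0.0053 for Slc12a1, -0.0419 for Ptger3, -0.0703 for Wfdc15b, -0.0286 for Casr and -0.0109 for Kcnj10. With the DCT marker mean as a covariate they were 0.0059 for Umod, 0.0200 for Cldn10 and -0.025 for Cldn19, and with centring 0.0012 for Kcnj1. Leaving out 1 array at a time gave -0.083 to 0.016 for Umod, -0.152 to 0.077 for Cldn16, -0.092 to 0.167 for Cldn19, -0.089 to 0.147 for Ptger3, -0.256 to 0.041 for Ppp1r1b and -0.021 to 0.091 for Wfdc15b. The cause of these turns was not tested. With the replicate number as a block, 0 of the 10 genes passed and 1 probe set was lower. Each number holds 1 array of each genotype, so the block cannot move the log2 differences, and the median of the 10 genes stayed at -0.06. The labels do not state that same-numbered samples are pairs. Deviations of same-numbered arrays correlated at 0.39, -0.20, 0.03 and 0.02, and only replicate 1 correlated best with its own number. Such correlations cannot show whether samples were paired by design. The 95% intervals of Cldn10 and Tmem207 include changes past 1.5-fold.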
